A study of Mus musculus with 5 samples.

Results

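The 9 genes described here were picked by symbol out of the 32285 genes of a mouse kidney single-cell count matrix. They are the sodium-phosphate cotransporters Slc34a1, Slc34a3, Slc20a1 and Slc20a2, the vitamin D hydroxylases Cyp24a1 and Cyp27b1, the klotho gene Kl, the vitamin D receptor Vdr and the parathyroid hormone receptor Pth1r. Their levels were followed along the nephron, in proximal tubule cells with and without the injury transcript Havcr1, and across the sequencing libraries.

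The study followed acute kidney injury (AKI) toward chronic disease in male C57BL/6J mice aged 6 to 8 weeks, and the labels name no altered gene in these samples. In the unilateral ischemia-reperfusion (UIR) model the left renal pedicle was clipped for 35 minutes and the right kidney was spared, so each injured mouse kept an uninjured kidney. Kidneys from day 1, 3, 14 and 28 after UIR, and from sham mice operated on without clipping, gave 1 sample each, and each sample combined 3 mice. Each cell barcode carries a suffix that separates 5 libraries, 1 to 5, and no label ties a suffix to a condition. The libraries were therefore treated as 1 pooled sample and named by their number, no level was assigned to sham or to a day, and no test between conditions was possible.

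Of the droplets, 57528 were kept as cells, between 8242 and 18934 in a library, with median depths of 4038 to 5340.5 unique molecular identifiers (UMIs). Among 57177 barcode sequences of kept cells, 350 occurred in more than 1 library. The labels call the cells of every sample goblet cells, a mucus-secreting type of the gut and airways. The goblet cell genes Muc2, Fcgbp and Tff3 summed to 21, 41 and 15 UMIs over all kept cells, against 242968 UMIs of Lrp2 and 11260 of Slc12a1, which mark kidney tubules. Those genes were picked after the label was seen, and the cells are described below by kidney markers.

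Cells were sorted into classes by the number of fixed markers in which they had a UMI, and none of the 9 genes was used as a marker. Proximal tubule cells numbered 40874. Of these, 11781 scored highest for markers of the first segment (S1), 11424 for the second (S2) and 7286 for the straight last segment (S3), and 10383 were unresolved. These scores form a continuum, and 8292 of the assigned cells lay close to the limit. The other classes held 932 thick ascending limb cells, 306 distal convoluted tubule cells, 279 connecting tubule and principal cells, 79 intercalated cells, 129 podocytes, 390 endothelial cells, 82 stromal cells and 5562 leukocytes. Another 468 cells passed for more than 1 class, 8416 cells of 943 median UMIs passed for none, and the 11 thin limb cells were too few to describe.

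The proximal tubule takes back most of the filtered phosphate through sodium-phosphate cotransporters of its brush border, and the SLC34 proteins carry most of this flow. Parathyroid hormone, acting on its receptor, and FGF23, acting on FGF receptors with klotho as co-receptor, remove these transporters from the membrane. The same tubule makes active vitamin D with the hydroxylase encoded by Cyp27b1 and breaks it down with the one encoded by Cyp24a1. The vitamin D receptor and parathyroid hormone are known to act on both enzyme genes in opposite directions. Klotho is best known in the distal convoluted tubule, where calcium is also taken up under hormonal control.

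The regions before the start sites of the 2 SLC34 genes are shown because these related cotransporters differed in their span along the proximal tubule, as described below. Each line gives 250 bases upstream of the RefSeq start (GRCm38.p6), 5′ to 3′ on the coding strand, from chr13:55399398-55399647 for Slc34a1 (plus strand) and chr2:25234235-25234484 for Slc34a3 (minus strand). Capitals mark matches on either strand to GTTAAT, the half-site of the HNF1 factors of kidney tubules.
Slc34a1: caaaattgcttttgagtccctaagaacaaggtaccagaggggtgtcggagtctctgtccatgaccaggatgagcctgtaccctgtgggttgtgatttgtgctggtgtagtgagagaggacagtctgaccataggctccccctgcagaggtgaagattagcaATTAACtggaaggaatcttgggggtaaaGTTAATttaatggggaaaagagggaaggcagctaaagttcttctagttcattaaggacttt
Slc34a3: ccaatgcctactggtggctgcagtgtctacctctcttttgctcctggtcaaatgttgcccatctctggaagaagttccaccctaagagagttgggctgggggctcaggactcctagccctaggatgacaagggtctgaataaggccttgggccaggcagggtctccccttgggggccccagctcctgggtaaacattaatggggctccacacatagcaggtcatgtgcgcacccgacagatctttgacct
The Slc34a1 region held 2 matches, which begin at -89 and -61 from the start, and the Slc34a3 region held none. At least 1 match was found in 6.44% of 32817 RefSeq promoter regions of this length, and 2 or more in 0.442%. Of the 9 genes, 7 have such a region in the RefSeq table, and Slc34a1 alone held a match. A match of letters is a description and does not show that a factor binds.

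In GRCm38 with GENCODE vM21, Slc34a1 lies at chr13:55398187-55415592 (plus strand), Slc34a3 at chr2:25228898-25234364 (minus), Slc20a1 at chr2:129198764-129211616 (plus) and Slc20a2 at chr8:22476788-22569612 (plus). Cyp24a1 lies at chr2:170482708-170497145 (minus), Cyp27b1 at chr10:127048250-127053006 (plus), Kl at chr5:150952607-150993817 (plus), Vdr at chr15:97854425-97910630 (minus) and Pth1r at chr9:110722085-110747145 (minus). All 9 are protein-coding, and UMIs were counted over whole genes, so exons and untranslated regions cannot be separated. Slc20a2 overlaps Gm17491 on its own strand. Slc34a1, Slc20a1, Slc20a2, Cyp24a1 and Pth1r overlap a gene on the other strand.

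Levels are given in CPM, the UMIs of a gene in a group of cells divided by all UMIs of that group and scaled to the unit's fixed total, with exact Poisson 95% intervals. The intervals cover counting error only and treat UMIs as independent, and there were no replicates of a condition. Proximal tubule RNA was present in every other class. The 8 proximal tubule markers reached between 15.9% and 30.5% of their proximal tubule level in the 8 other classes, so for each class and library the CPM that would come along with those marker UMIs was computed as a background. In leukocytes, which should lack these transporters, Slc34a1 stood at 989 CPM against a background of 973. A level at its background is not read as expression.

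Slc34a1 encodes NaPi-IIa, the main phosphate cotransporter of the brush border. It stood at 3461 CPM in S1 cells (interval 3447 to 3474), 3960 in S2 cells (3946 to 3974) and 2601 in S3 cells (2586 to 2616). The summed order of S1 and S2 turned with strata of library (log2 0.04), with Slc34a1 higher in S1 in 4 of 5 libraries. In the 8 other classes it lay between 585 and 1191 CPM, and the ratio to the background was between 0.93 and 1.17 in each of them. At a common depth of 2000 UMIs a cell, 98.2% of S1 cells, 99.1% of S2 cells and 87.2% of S3 cells had a UMI, against 47.2% of leukocytes. The unthinned shares were 99.2%, 99.3%, 93.0% and 51.5%. Among the 9 classes, Slc34a1 stood clearly above background in the proximal tubule alone, with its lowest segment level in S3.

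Slc34a3 encodes NaPi-IIc, the second SLC34 cotransporter of the kidney brush border. Its S1 level was 88.2 CPM (86.1 to 90.4), and its S2 and S3 levels were 7.09 (6.52 to 7.70) and 6.14 (5.43 to 6.92). Leukocytes held 11.8 CPM against a background of 8.81, so the S2 and S3 levels did not exceed the level of a class that should lack the gene. In S1 cells Slc34a3 stood at 159, 111, 40.2, 111 and 155 CPM in libraries 1 to 5. In S3 cells the same libraries gave 3.08, 3.26, 8.07, 10.9 and 9.08 CPM. Every S1 value lay above every S3 value, and the S1 value of library 3 was the lowest.

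The Mantel-Haenszel ratio of S1 to S3, stratified by library, was 19.4-fold for Slc34a3 (log2 4.28, interval 4.10 to 4.45) and 1.70-fold for Slc34a1 (log2 0.76, interval 0.75 to 0.78), and both were higher in S1 in 5 of 5 libraries. Between S1 and S2 the ratio was 14.7-fold for Slc34a3 and 1.03-fold for Slc34a1. Both Slc34a3 folds are ratios to levels no higher than those of leukocytes, and no background was computed for segments. Their size is not read as a ratio of expression. Of the 3 segments, Slc34a3 exceeded its leukocyte level in S1 only, whereas Slc34a1 was at nearly the same level in S1 and S2.

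**Figure D1:**
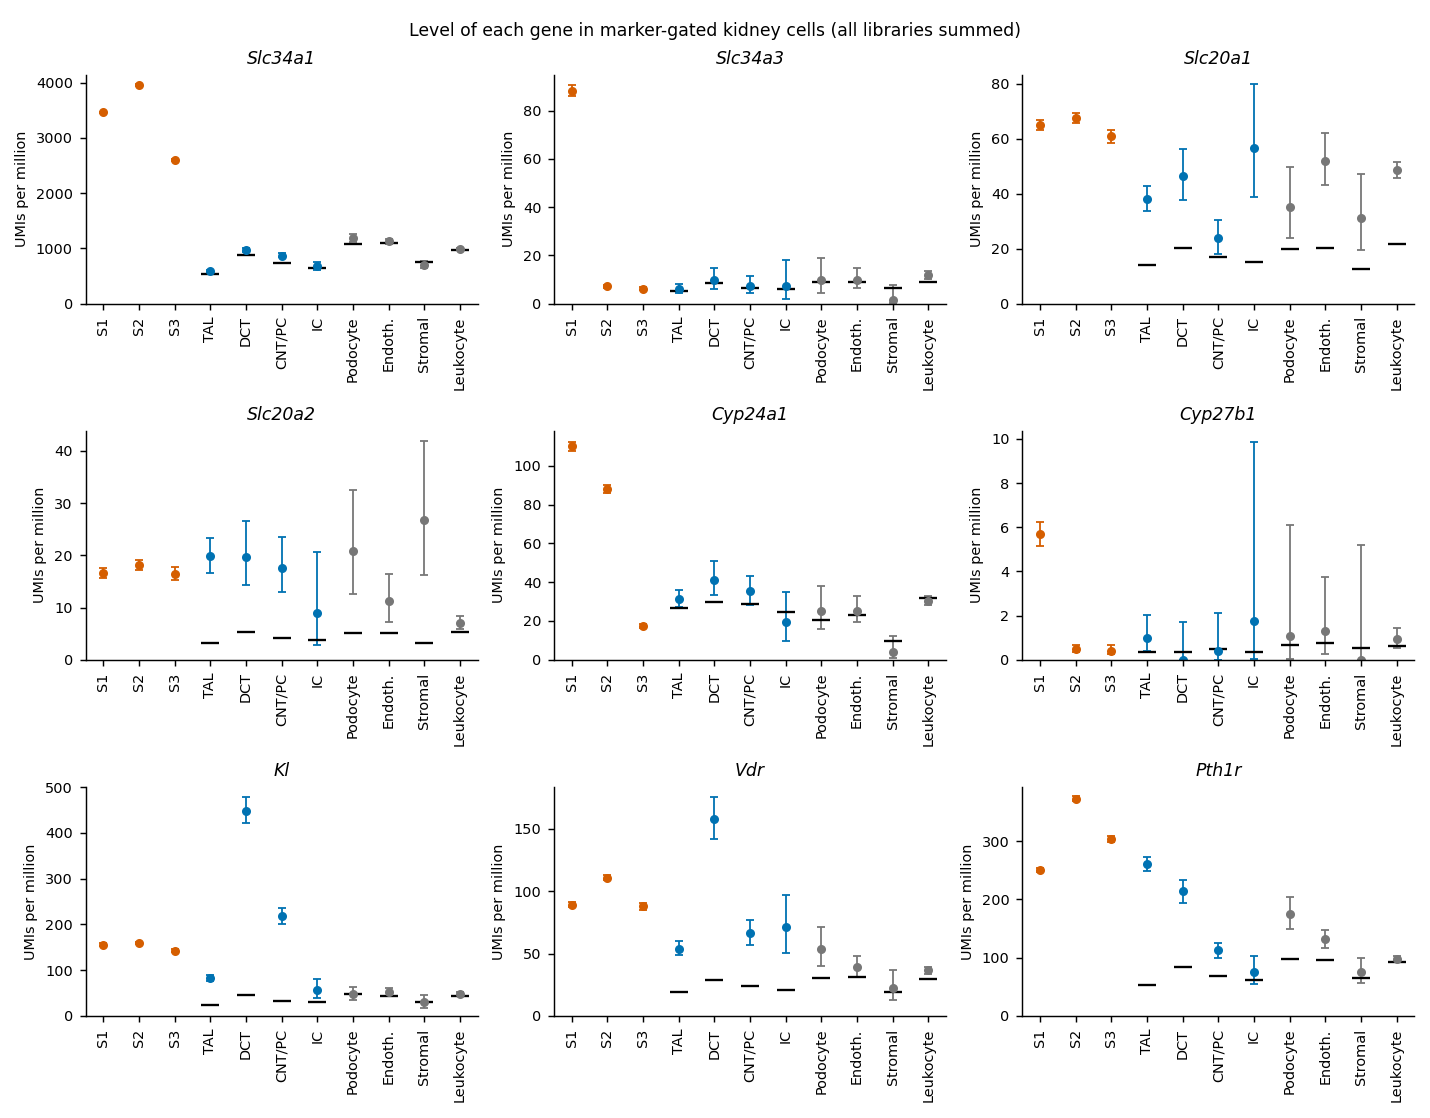
Level of each of the 9 genes (vertical axes, CPM, linear from 0) in S1, S2 and S3 proximal tubule cells (orange), thick ascending limb (TAL), distal convoluted tubule (DCT), connecting tubule and principal (CNT/PC) and intercalated (IC) cells (blue), and podocytes, endothelial cells, stromal cells and leukocytes (grey). Bars are exact Poisson 95% intervals and black dashes the background that comes with proximal tubule marker RNA. Slc34a1 lies at 0.93 to 1.17 times its dash in the 8 classes outside the proximal tubule, while Kl in DCT cells, at 449 CPM, sits far above its own.

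The type III cotransporters Slc20a1 (PiT-1) and Slc20a2 (PiT-2) serve phosphate supply in most cells. Slc20a1 lay at 65.1, 67.4 and 60.9 CPM in S1, S2 and S3 cells. Outside the proximal tubule it was between 23.8 CPM in connecting tubule and principal cells and 56.7 CPM in intercalated cells, the latter from only 32 UMIs (38.8 to 80.0). Leukocytes held 48.6 CPM, 2.24 times their background, so Slc20a1 was found above background in classes of unrelated origin. The proximal tubule held its highest level of 9 classes, but the interval of intercalated cells, the next class, overlapped it.

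Slc20a2 was at 16.5, 18.1 and 16.5 CPM along S1, S2 and S3. It was highest in stromal cells at 26.8 CPM (16.2 to 41.9, from 19 UMIs) and lowest in leukocytes at 7.09 (5.98 to 8.34). Stromal, podocyte, thick ascending limb, distal convoluted tubule, connecting tubule and principal, and proximal tubule cells, in this order of level, did not differ from the next by more than their intervals. The stratified S1 to S3 log2 ratio was -0.11 (-0.19 to -0.03) for Slc20a1 and -0.08 (-0.23 to 0.07) for Slc20a2. Library 4 stood apart, with Slc20a1 at 49.4, 82.1 and 99.4 CPM and Slc20a2 at 14.7, 17.7 and 25.6 CPM in S1, S2 and S3. In the other 4 libraries the S1 to S3 log2 ratio was between -0.13 and 0.17 for Slc20a1 and between -0.18 and 0.20 for Slc20a2. Reads of Gm17491 on the same strand may be included in the Slc20a2 count or left out of it.

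Cyp27b1 encodes the 1-alpha-hydroxylase that activates vitamin D. It was the sparsest of the 9 genes, with 542 UMIs in all proximal tubule cells, 417 of them in S1 cells. Its S1 level was 5.69 CPM (5.15 to 6.26), against 0.50 in S2 (0.36 to 0.68) and 0.41 in S3 (0.24 to 0.65). Leukocytes held 0.92 CPM (0.56 to 1.44), 1.49 times their background of 0.62, and the S2 and S3 levels exceeded neither value. No UMI was seen in distal convoluted tubule cells, where a count of 0 allows up to 1.38 CPM. Only 2.61% of S1 cells had a UMI, or 1.11% at 2000 UMIs a cell, against 0.29% and 0.13% of leukocytes.

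In S1 cells Cyp27b1 stood at 21.4, 6.59, 1.75, 8.02 and 3.78 CPM in libraries 1 to 5. Library 1 was highest and library 3 lowest, and in each library S1 lay above S2 and above S3. The S1 to S3 ratio was 20.2-fold (log2 4.34, interval 3.66 to 5.02) and the S1 to S2 ratio 14.5-fold (log2 3.86, interval 3.41 to 4.32). As for Slc34a3, these are ratios to levels that, summed over libraries, were no higher than those of leukocytes. Their size is not read as a ratio of expression.

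Cyp24a1 encodes the 24-hydroxylase that inactivates vitamin D. Summed over all libraries it was at 110 CPM in S1 (108 to 113), 87.9 in S2 (85.9 to 90.0) and 17.4 in S3 (16.2 to 18.7). The S1 to S2 order turned with strata of library (log2 -0.15, interval -0.19 to -0.11). Outside the proximal tubule it was between 4.24 and 41.3 CPM, with 0.45 to 1.40 times the background, and leukocytes held 30.3 CPM against 31.8 expected.

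The segment pattern of Cyp24a1 depended on the library. In S1 cells it stood at 132, 61.2, 135, 77.6 and 126 CPM in libraries 1 to 5. In S2 cells the values were 14.4, 15.9, 318, 24.9 and 49.9 CPM, and in S3 cells 5.07, 3.16, 136, 34.4 and 8.64 CPM. Libraries 1, 2, 4 and 5 were thus highest in S1, whereas library 3 was highest in S2, with S1 and S3 alike. The stratified S1 to S3 ratio was 3.78-fold and higher in 4 of 5 libraries, and without library 3 it was log2 3.39 in place of 1.92. Since library 3 did not share the direction, Cyp24a1 is not counted among the genes called between S1 and S3. In libraries 1, 2 and 5 the S3 levels did not exceed the leukocyte levels of 5.86, 6.65 and 9.66 CPM. The log2 3.39 is therefore in part a ratio to levels no higher than those of leukocytes, and its size is not read as a ratio of expression.

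**Figure D2:**
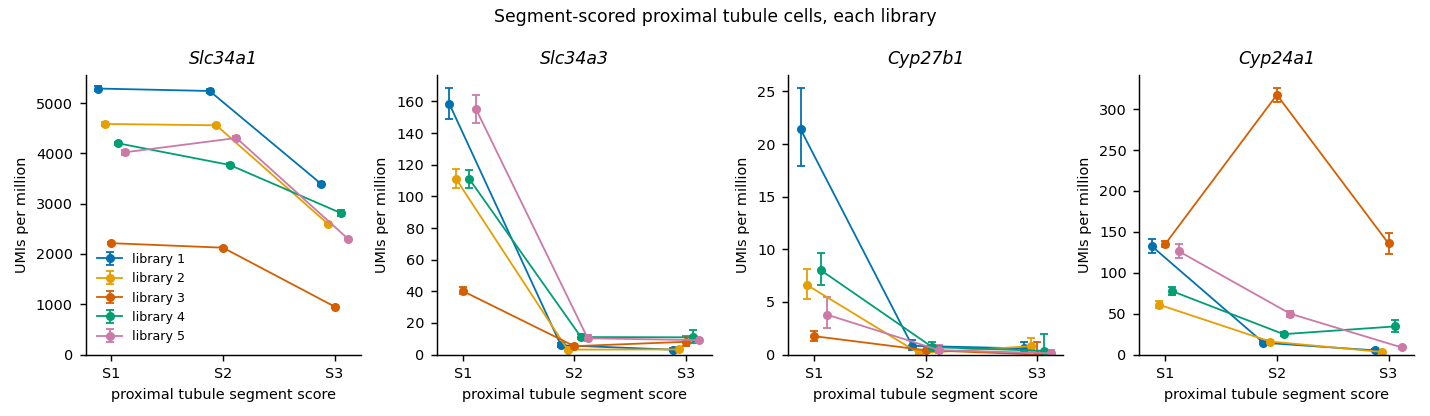
Levels of Slc34a1, Slc34a3, Cyp27b1 and Cyp24a1 (vertical axes, CPM, linear from 0) in proximal tubule cells scored S1, S2 and S3 (horizontal axis), with 1 line for each library and exact Poisson 95% intervals. Slc34a3 and Cyp27b1 drop after S1 in all 5 libraries, and Cyp24a1 in library 3 rises to 318 in S2 while the other 4 libraries drop.

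A gene was called between 2 groups of cells when its stratified ratio was at least 1.5-fold and pointed the same way in every library with at least 20 cells in both groups, among genes with at least 50 UMIs in both groups together. Of the 9 genes, 3 were called higher in S1 than in S3 (Slc34a1, Slc34a3 and Cyp27b1) and none lower. Among all 13260 genes tested, 14.9% were called higher and 6.83% lower. Between S1 and S2, 2 were called higher (Slc34a3 and Cyp27b1) and none lower, against 14.6% and 5.53% of 13355 genes. The median log2 ratio of S1 to S3 was 0.37 over the 9 genes and 0.14 over all genes tested.

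Slc34a3 and Cyp27b1 shared their segment, and their levels in single S1 cells were compared as well. In the 3896 S1 cells with a Slc34a3 UMI, Cyp27b1 was 0.41 higher on the log2 scale than in the 7885 without one (0.13 to 0.69), in 5 of 5 libraries. Slc34a1 was 0.19 higher (0.18 to 0.20) and Slc20a1 0.36 lower (-0.45 to -0.27 as a log2 ratio), each in 5 of 5 libraries. With strata of library and depth quartile these log2 ratios were 0.44, 0.22 and -0.35. All are under 1.5-fold, and the choice of this split was made after the segment values were seen.

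Kl encodes klotho, the co-receptor that lets FGF receptors answer FGF23. It was highest in distal convoluted tubule cells at 449 CPM (421 to 478), followed by connecting tubule and principal cells at 218 (201 to 237), the proximal tubule at 155 (153 to 156) and the thick ascending limb at 83.4 (76.8 to 90.4). Over all libraries these 4 classes differed by more than their intervals, but the size of the gap between the first 2 rested on library 5. In leukocytes it was at 48.3 CPM, 1.09 times the background, and in podocytes, endothelial and stromal cells the ratio lay between 0.99 and 1.17. In distal convoluted tubule cells Kl was at 290, 392, 139 and 713 CPM in libraries 1, 2, 3 and 5, and library 4 had only 8 such cells. Library 3 was the lowest there and library 5, with 167 of the 306 cells, the highest. Connecting tubule and principal cells held 149, 465, 151, 149 and 360 CPM in libraries 1 to 5, so they lay above distal convoluted tubule cells in libraries 2 and 3 and below them in libraries 1 and 5. The ratio of the distal convoluted to the proximal tubule was 2.73-fold (log2 1.45, interval 1.36 to 1.54), with log2 ratios of 1.23, 1.02, 0.30 and 1.87 in libraries 1, 2, 3 and 5. Without library 5 the log2 ratio of the proximal tubule to the highest other class, not stratified, moved from -1.54 to -0.61.

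Within the proximal tubule Kl was at 156, 160 and 143 CPM in S1, S2 and S3 when libraries were summed. In library 3, which gave 703 of the 7286 S3 cells, it was at 113, 132 and 58.3 CPM (S1 to S3 log2 0.95), and in the other 4 libraries the log2 ratio was between 0.17 and 0.46. The S1 to S3 log2 ratio was 0.37 (0.32 to 0.42), higher in 5 of 5 libraries but under the 1.5-fold limit.

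Vdr encodes the nuclear receptor for active vitamin D. Distal convoluted tubule cells had 158 CPM (142 to 175), the proximal tubule 98.2 (97.0 to 99.4), intercalated cells 70.9 (50.6 to 96.5), connecting tubule and principal cells 66.4 (56.9 to 77.0) and the thick ascending limb 54.0 (48.7 to 59.7). The 4 classes outside the proximal tubule lay at 2.74 to 5.51 times their background, and the last 3 of the 5 did not differ from the next by more than their intervals. Leukocytes had 36.5 CPM, 1.22 times theirs. The distal convoluted tubule was 1.58-fold above the proximal tubule (log2 0.66, interval 0.51 to 0.82), with log2 ratios of 0.22, 0.44, 0.26 and 1.01 in libraries 1, 2, 3 and 5. The 1.5-fold size rested on library 5, without which the log2 ratio of the proximal tubule to the highest other class, not stratified, moved from -0.68 to -0.26. Along the proximal tubule S2 was highest at 111 CPM, with 89.1 in S1 and 87.8 in S3.

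Pth1r encodes the receptor through which parathyroid hormone acts on phosphate transport and vitamin D activation. It was at 373 CPM in S2 (368 to 377), 304 in S3 (299 to 309) and 251 in S1 (248 to 255). The thick ascending limb had 261 CPM (249 to 273), 4.98 times its background, and the distal convoluted tubule 214 (195 to 234), 2.52 times its background. Podocytes had 175 CPM, 1.79 times theirs, and leukocytes 97.8, 1.06 times theirs. Pth1r was lower in S1 than in S2 in 5 of 5 libraries (log2 -0.48, interval -0.51 to -0.45). Against S3 the S1 level was lower in 4 of 5 libraries (log2 -0.19, interval -0.22 to -0.15), with libraries 3 and 4 at -0.03 and -0.02 and library 1 at 0.06. The thick ascending limb lay above the proximal tubule in libraries 3 and 4, at 248 against 233 CPM and 390 against 356 CPM, and below it in libraries 1, 2 and 5, with a stratified ratio of 0.949-fold. The distal convoluted tubule lay above the proximal tubule in library 3 only, at 311 CPM.

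Taking all classes, 6 of the 9 genes were highest in the proximal tubule when libraries were summed: Slc34a1, Slc34a3, Slc20a1, Cyp24a1, Cyp27b1 and Pth1r. The first place of Pth1r did not hold in libraries 3 and 4. Kl and Vdr were highest in the distal convoluted tubule, Kl not in libraries 2 and 3, and Slc20a2 in stromal cells. Only library 1 had at least 20 stromal cells, and for Slc20a2 its podocytes, at 33.3 CPM, lay above its stromal cells, at 30.8. For Cyp27b1 and Slc20a1 the first place rested on few UMIs in the next class, and it was lost for Cyp27b1 without library 1 or library 3. Slc20a1 lost it to endothelial cells in library 1 (53.3 against 52.2 CPM). In library 3 it lost it to distal convoluted tubule cells (83.6 against 81.2 CPM). Cyp27b1 lost it to podocytes in library 2 (2.41 against 2.10 CPM) and to the thick ascending limb in library 5 (2.44 against 0.92 CPM), each with 1 UMI.

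Havcr1 encodes KIM-1, a membrane protein made by injured proximal tubule cells. At least 1 Havcr1 UMI was found in 3282 of 40874 proximal tubule cells, 8.03%. By library the share was 2.27%, 5.39%, 20.4%, 4.95% and 0.434%, so library 3 held 2335 of these cells and library 5 only 34. Havcr1-bearing cells were deeper, with a median of 7460 UMIs against 5452, and their segment mix differed. The share scored S3 was 46.3%, 27.7%, 6.42%, 12.5% and 85.3% of bearing cells in libraries 1 to 5, against 27.6%, 21.4%, 6.06%, 6.89% and 31.2% of free cells. The share scored S1 was 3.75%, 17.6%, 32.0%, 17.7% and 8.82% against 14.6%, 26.3%, 48.2%, 32.7% and 18.4%. In each library bearing cells thus held more S3 and fewer S1 cells. The 9 other genes of the injured tubule list summed to 8126, 11875, 15712, 14832 and 1624 CPM in bearing cells of libraries 1 to 5 and 1479, 2252, 12558, 3655 and 951 CPM in free cells, higher in bearing cells in each library. These sums are mostly Spp1. It alone stood at 6774, 10521, 14839, 14220 and 1355 CPM in bearing cells and 811, 1702, 11539, 3355 and 689 CPM in free cells. In library 3 Lcn2, Krt8, Krt18 and Clu were lower in bearing cells, and Krt20, Vcam1, Cd44 and Sox9 were higher. Of the 9, only Spp1 was called higher (log2 0.77). Vcam1, Cd44, Krt20 and Sox9 had stratified log2 ratios of 3.72, 2.97, 2.32 and 2.14 and were higher in 4 of 5 libraries. The ratio was 0.26 for Krt8 and -0.32, -0.37 and -0.21 for Lcn2, Krt18 and Clu. By library, however, Clu was higher in bearing cells in 4 of 5, with log2 ratios of 1.08, 3.12, -0.44, 1.51 and 2.40 in libraries 1 to 5. Krt8 and Krt18 were each higher in 3 of 5 libraries, and Lcn2 was higher in 2 and lower in 2. In the 34 bearing cells of library 5, 5 of the 9 were at 0. The 6 leukocyte markers summed to 8.63, 15.8, 21.2, 8.93 and 2.92 CPM in bearing cells and 14.4, 17.5, 27.3, 11.9 and 1.88 CPM in free cells, lower in bearing cells in 4 of 5 libraries. The 8 proximal tubule markers lay between 6980 and 10867 CPM in bearing cells and between 8250 and 14958 CPM in free cells, lower in bearing cells in each library. The part of these differences in the results that follow was not tested, except through the strata given beside them.

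Slc34a3 was lower in Havcr1-bearing cells in every library. Bearing cells held 4.31, 12.6, 11.99, 16.96 and 2.92 CPM in libraries 1 to 5, and free cells 29.0, 33.8, 27.2, 44.5 and 33.9 CPM. The highest bearing value lay below the lowest free value. In libraries 1, 3, 4 and 5, however, the bearing values did not exceed the leukocyte levels of 6.37, 14.5, 17.02 and 19.3 CPM. The size of the ratios over all proximal tubule cells is therefore not a ratio of expression. The stratified ratio was 0.392-fold (log2 -1.35, interval -1.51 to -1.19). When cells were also stratified by segment it was log2 -0.92, and with strata of depth it was -1.19. Within S1 cells, which hold most of the transcript, it was log2 -0.84 (-1.03 to -0.66).

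Slc34a1 moved the same way with a smaller ratio. It stood at 3118, 2920, 1662, 2935 and 1075 CPM in bearing cells and 4659, 4094, 2146, 3788 and 3522 CPM in free cells. It was lower in 5 of 5 libraries, by log2 -0.58, -0.49, -0.37, -0.37 and -1.71, and the stratified ratio was 0.739-fold (log2 -0.44, interval -0.45 to -0.42), short of 1.5-fold. The lowest ratio came from library 5, where 85.3% of the 34 bearing cells scored S3. Per UMI of the 8 proximal tubule markers, which were themselves lower in bearing cells, the Slc34a1 log2 ratio was -0.06, while that of Slc34a3 was -0.995. Slc34a1 moved with the proximal tubule markers, and Slc34a3 was lower than they were. These cells cannot tell fewer transcripts of these genes from more of others, since CPM is a share of all UMIs.

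Slc20a1 went the opposite way. Bearing cells held 102, 114, 102, 121 and 70.1 CPM in libraries 1 to 5 and free cells 50.4, 56.8, 73.4, 72.9 and 60.8 CPM. It was higher in bearing cells in 5 of 5 libraries, with a stratified ratio of 1.55-fold (log2 0.64, interval 0.58 to 0.70). It lay just above the 1.5-fold limit and fell below it without library 2 (log2 0.56). With strata of segment the log2 ratio was 0.62, with strata of depth 0.63, and per proximal tubule marker UMI 0.96. Within segments it was 0.46 in S1 and 0.41 in S2, under the 1.5-fold limit, and 0.88 in S3 and 0.82 in unresolved cells. Slc20a2 was higher in 4 of 5 libraries, with a log2 ratio of 0.23 (0.10 to 0.36), and was not called.

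Kl was lower in bearing cells in 5 of 5 libraries on the CPM scale, with a log2 ratio of -0.24 (-0.30 to -0.19), but per proximal tubule marker UMI the ratio turned to 0.12. In library 5 the CPM ratio was log2 -1.21 and in the other 4 libraries it was between -0.40 and -0.17. Cyp24a1 was higher in 2 libraries and lower in 3, with a stratified log2 ratio of 0.19 (0.14 to 0.24). Without strata its log2 ratio was 1.15, and without library 3, which held both most Havcr1-bearing cells and the highest Cyp24a1 level, the stratified ratio turned to -0.18. Cyp27b1, with 44 UMIs in bearing cells, had a log2 ratio of -0.14 (-0.59 to 0.30) and was higher in library 2 only. Vdr had a log2 ratio of -0.07 (-0.13 to -0.01) and Pth1r of -0.03 (-0.07 to 0.00). On the CPM scale these stratified intervals of Vdr and Pth1r lie within 1.5-fold, as far as counting error goes, but they do not describe each library. Vdr was lower in 5 of 5 libraries, with log2 ratios of -0.49, -0.01, -0.03, -0.03 and -0.61 in libraries 1 to 5. The library 5 ratio of Vdr lies past 1.5-fold and rests on 34 bearing cells. Pth1r was lower in 4 of 5 libraries, between -0.16 and 0.06. Per proximal tubule marker UMI the ratios of Cyp27b1, Vdr and Pth1r turned positive, to 0.23, 0.27 and 0.33.

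**Figure D3:**
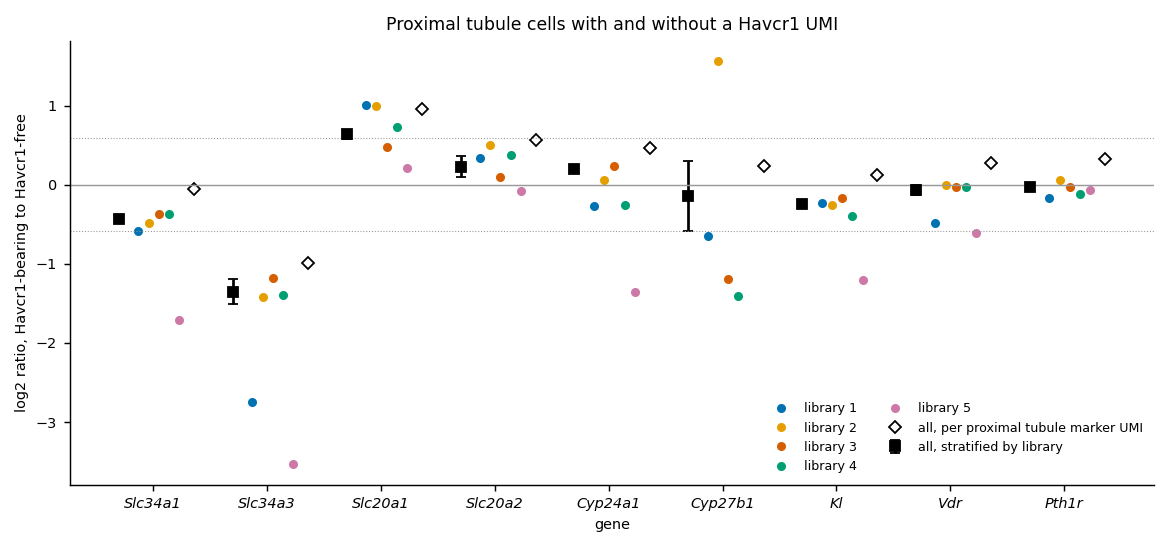
Log2 ratio of the CPM in Havcr1-bearing to that in Havcr1-free proximal tubule cells (vertical axis) for the 9 genes (horizontal axis), with the ratio stratified by library (black squares with 95% intervals for counting error), each library (coloured points) and the ratio per proximal tubule marker UMI (open diamonds). Dotted lines mark 1.5-fold, and Cyp27b1 in library 5 has no point because bearing cells held no UMI. Slc34a3 lies below 0 and Slc20a1 above 0 in all 5 libraries and on both scales, while the Slc34a1 diamond is at -0.06.

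Of the 9 genes, 1 was called lower (Slc34a3) and 1 higher (Slc20a1) in Havcr1-bearing cells. Among all 14348 genes tested 3.77% were called lower and 1.46% higher. The median log2 ratio was -0.07 over the 9 genes and -0.02 over all genes tested.

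The number of Havcr1 UMIs in a cell was followed in library 3, which had enough cells. Over cells with 0, 1, 2 and at least 3 Havcr1 UMIs (9121, 1571, 409 and 355 cells), Slc34a1 stood at 2146, 1875, 1595 and 1155 CPM. Slc34a3 stood at 27.2, 15.7, 8.41 and 5.12 CPM, of which 8.41 and 5.12 lay below the 14.5 CPM of leukocytes in library 3. Slc20a1 went the other way, at 73.4, 91.7, 98.9 and 133 CPM. Kl was at 117, 117, 98.9 and 73.7 CPM, and Vdr at 93.8, 101, 90.8 and 67.2 CPM. Cyp24a1 had no steady direction, at 187, 221, 233 and 207 CPM. All these cells come from 1 library, in which bearing cells were deeper than free cells (medians of 6991 and 5195 UMIs), so these are levels with no test.

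**Figure D4:**
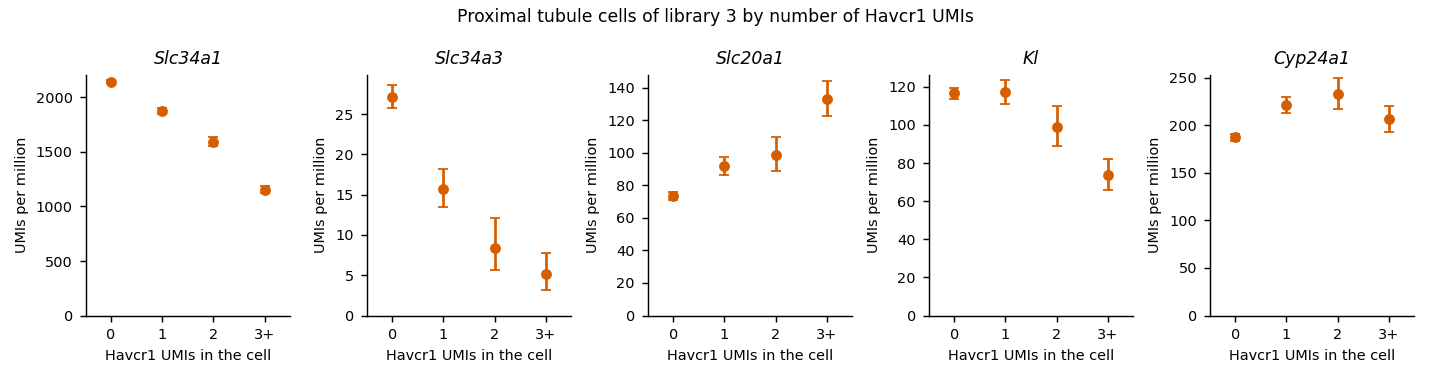
Levels of Slc34a1, Slc34a3, Slc20a1, Kl and Cyp24a1 (vertical axes, CPM, linear from 0) in proximal tubule cells of library 3 with 0, 1, 2 or at least 3 Havcr1 UMIs (horizontal axis), with exact Poisson 95% intervals. Slc34a1 drops from 2146 to 1155 and Slc34a3 from 27.2 to 5.12, whereas Slc20a1 climbs from 73.4 to 133.

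The libraries were then compared over all proximal tubule cells, as values with no test. Library 3 stood apart. Its injured tubule list, here of 10 genes with Havcr1 included, summed to 13477 CPM, against 957 to 4482 in the other libraries, its proximal tubule markers to 7907 CPM against 12868 to 14759, and 44.9% of its cells scored S1 against 14.4% to 31.9%. Most of that list sum was Spp1, at 14839 CPM in bearing and 11539 CPM in free cells of library 3. The list summed to 56183 CPM in thick ascending limb cells, of which library 3 held 564 of 932. The part of their RNA in the sum was not tested. Median depth was even, between 5519 and 5790 UMIs. The median mitochondrial share was lowest in library 3, at 9.11% against 10.7% to 14.1% in the others. The leukocyte markers summed to 25.6 CPM in library 3 and 1.88 to 17.3 CPM in the others. The part of segment mix, marker loss and leukocyte RNA in the values below was not tested beyond the figures given beside them.

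Cyp24a1 showed the largest span of the 9 genes between libraries. In libraries 1 to 5 it was at 28.7, 24.97, 196, 44.3 and 44.9 CPM, so library 3 was 7.86-fold above library 2 and the other 4 libraries lay within 1.80-fold. Per 1000 proximal tubule marker UMIs the span was 12.8-fold, from 1.94 in library 2 to 24.8 in library 3. At 2000 UMIs a cell, the share of proximal tubule cells with a UMI was 4.13%, 3.91%, 24.2%, 7.1% and 6.14% in libraries 1 to 5. In cells with no Havcr1 UMI the levels were 28.9, 24.9, 187, 44.8 and 45.0 CPM, so the high value of library 3 was also present in Havcr1-free cells. By segment the span was 2.21-fold in S1 and 22.0-fold in S2, and library 3 was the highest in S2 and S3. In S1 its 135 CPM (131 to 139) overlapped library 1 (124 to 142) and library 5 (119 to 135). No fold is given for S3, where libraries 1, 2 and 5 did not exceed their leukocyte levels of 5.86, 6.65 and 9.66 CPM.

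Slc34a1 was at 4603, 3986, 2015, 3726 and 3505 CPM in libraries 1 to 5. Library 3 was lowest, 2.28-fold below library 1, and without it the span was 1.31-fold. In S1, S2 and S3 cells library 3 was also lowest, at 2214, 2125 and 953 CPM. Per 1000 UMIs of the proximal tubule markers, however, the values were 312, 310, 255, 254 and 245, a span of 1.28-fold with library 5 lowest. The low CPM of library 3 was shared with the markers of the same cells.

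Cyp27b1 was at 3.82, 2.10, 1.12, 3.02 and 0.92 CPM, 4.15-fold from library 5 to library 1. In S1 cells alone the span was 12.2-fold, with library 3 lowest and library 1, at 21.4 CPM, far above the next at 8.02. Slc34a3 was at 28.1, 31.8, 23.1, 42.5 and 33.7 CPM over all proximal tubule cells, but the share of S1 cells differs between libraries, and in S1 cells alone the span grew from 1.84-fold to 3.95-fold with library 3 lowest, at 40.2 CPM against 111 to 159 in the others. Slc20a1 was at 52.2, 62.1, 81.2, 76.4 and 60.8 CPM and Slc20a2 at 13.8, 18.2, 17.7, 17.5 and 18.5 CPM. Kl was at 123, 193, 113, 162 and 195 CPM, Vdr at 115, 101, 93.3, 82.7 and 102 CPM, and Pth1r at 332, 364, 233, 356 and 317 CPM. Slc34a1, Slc34a3, Kl and Pth1r were lowest in library 3, as were 16.5% of the 14348 genes tested. Per 1000 proximal tubule marker UMIs this turned for 3 of them: library 3 was highest for Slc34a3 (2.917, with library 4 next at 2.901) and Pth1r (29.4 against 22.1 to 28.3) and second highest for Kl (14.3).

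A span of at least 2-fold was found for 3 of the 9 genes, Slc34a1, Cyp24a1 and Cyp27b1, against 37.1% of all genes tested. The share of the 9 genes is close to this background. Without library 3 only Cyp27b1 kept such a span. Per proximal tubule marker UMI, 5 genes had one: Slc20a1, Slc20a2, Cyp24a1, Cyp27b1 and Vdr. The share of all genes was not computed without library 3 or on the marker scale. These counts therefore have no background and are not read as a result about the 9 genes.

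**Figure D5:**
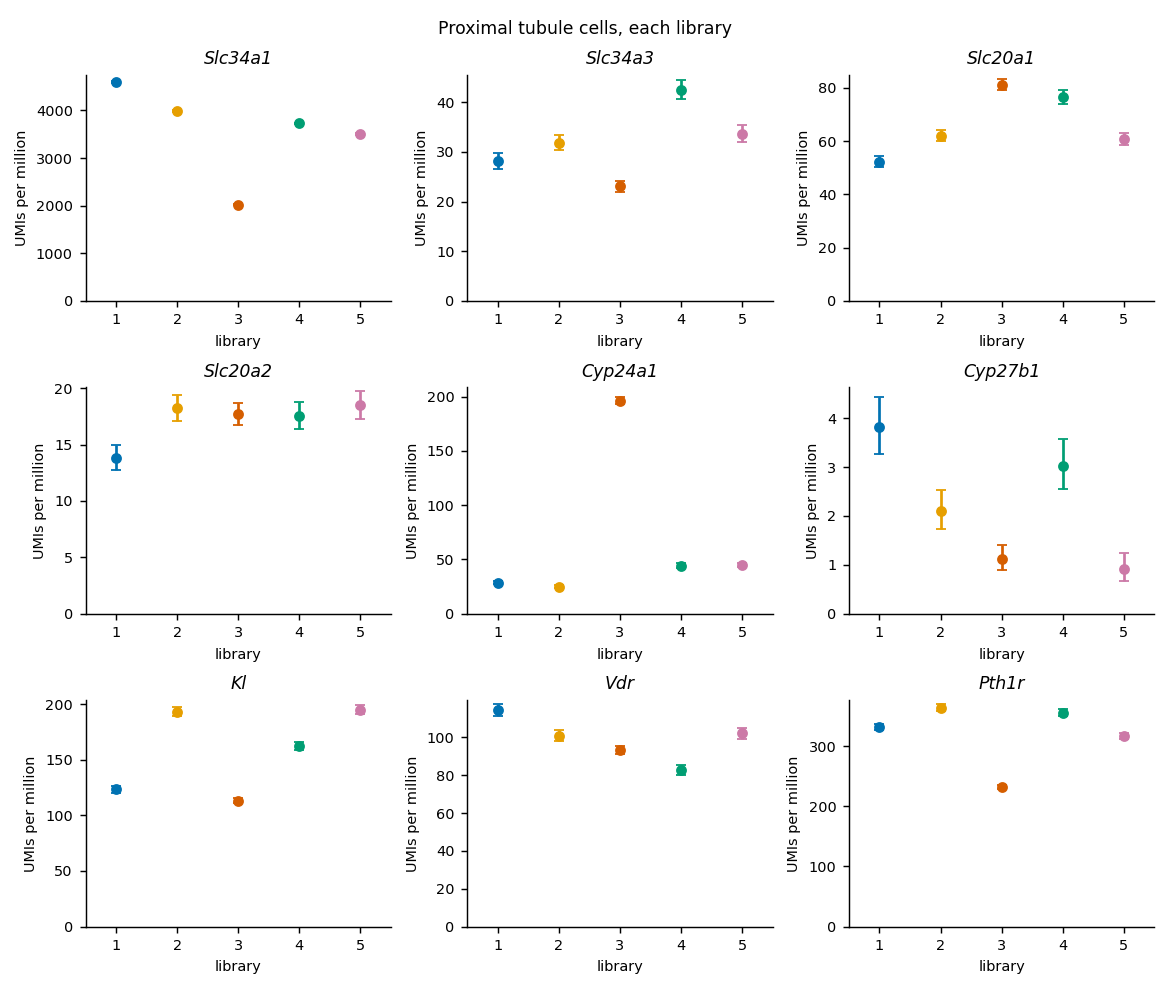
Levels of the 9 genes (vertical axes, CPM, linear from 0) in proximal tubule cells of libraries 1 to 5 (horizontal axis), with exact Poisson 95% intervals. Cyp24a1 in library 3, at 196, stands above the other 4 libraries (24.97 to 44.9), and Slc34a1 in library 3, at 2015, below the others (3505 to 4603).

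Another 36 genes of the same axis were looked at as a list. In the Havcr1 comparison 31 passed the minimum of 50 UMIs, of which 2 were called lower and none higher, against 3.77% and 1.46% of all genes tested, and the median log2 ratio was -0.11. The 2 were Calb1 (log2 -0.80, interval -1.27 to -0.34) and Trpv5 (log2 -2.34, interval -3.81 to -0.87), a calcium-binding protein and a calcium channel of the distal nephron, with 46 and 4 UMIs in bearing cells. Outside library 3 bearing cells were few. They held at most 0.63 CPM of Calb1, against 0.84 to 8.54 CPM in free cells, so its direction there rests on few UMIs. For Trpv5 free cells outside library 3 held at most 0.082 CPM, so 0 UMIs in their bearing cells says little, and the call rests on library 3. Between S1 and S3, 29 were tested, with 6 called higher and 2 lower, against 14.9% and 6.83% of all genes tested. Between libraries, 9 of 31 had a span of at least 2-fold in the proximal tubule, against 37.1% of all genes. The genes called between S1 and S3 that are named next, and the other receptors and proteases, were picked for naming after their values were seen.

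Among phosphate handling genes, 3 of 6 tested were called higher in S1 than in S3, where 14.9% of all genes were: the phosphate exporter Xpr1 (log2 0.76), the phosphatase Alpl (log2 2.74) and Enpp1 (log2 0.60), which makes pyrophosphate. The anion transporter Slc17a3 was called lower in S1 (log2 -1.44). The mitochondrial phosphate carrier Slc25a3 had the highest level of this group in the proximal tubule, 1043 CPM, and none of its 7 genes was called in the Havcr1 comparison. Of the PDZ scaffolds that hold NaPi-IIa at the brush border, Pdzk1 stood at 502 CPM and Slc9a3r1 at 222 CPM in the proximal tubule, and none of the 3 was called in either comparison.

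For FGF23 signalling, Fgf23 had no UMI in any class, and 0 UMIs in the proximal tubule allow up to 0.0115 CPM. Among its receptors in the proximal tubule, Fgfr1 was at 16.5 CPM, Fgfr3 at 14.0, Fgfr4 at 13.9 and Fgfr2 at 0.44. In distal convoluted tubule cells, where Kl was highest, Fgfr1 stood at 54.1 CPM, 10.6 times the background. None of the 4 tested genes was called in the Havcr1 comparison, and Fgfr2 was called lower in S1 than in S3.

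Of the 7 genes of vitamin D uptake and activation, 3 were called higher in S1 than in S3, beside the same 14.9% of all genes: Gc (log2 2.31), Dab2 (log2 1.06) and Cyp27a1 (log2 0.91). Lrp2, which encodes the receptor megalin that takes up vitamin D bound to its carrier, had the highest level, 876 CPM in the proximal tubule. It was 0.85-fold in Havcr1-bearing cells, lower in 5 of 5 libraries, and not called. Of the calcium transport genes, Calb1 stood at 1199 CPM and S100g at 1773 CPM in distal convoluted tubule cells, against 3.37 and 114 CPM in the proximal tubule. In the proximal tubule S100g was at 37.1, 42.9, 252, 118 and 53.8 CPM in libraries 1 to 5, with library 3 highest. Of all 14348 genes tested, 42.6% were highest in library 3.

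Gnas, the G protein subunit behind the parathyroid hormone receptor, was at 203 CPM in the proximal tubule and was not called in either comparison. Stc2 had a log2 ratio of 1.76 in the Havcr1 comparison but was higher in 4 of 5 libraries only. Of the proteases that can shed klotho, Adam10 was at 31.2 CPM, Adam17 at 12.5 CPM and Bace1 at 9.50 CPM in the proximal tubule, and none was called.

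The genes most like each of the 9 were sought by the Pearson correlation of log2(CPM + 1) over 43 points of class and library, among 13616 genes. For Slc34a1 these were Neu1, Galnt11 and Tcn2 (r = 0.96, 0.95 and 0.95), and among those closest to Slc34a3 were D630023F18Rik and Gm36372 (r = 0.80 and 0.79). Cyp24a1 was closest to Nox4, Slc13a1 and Psat1 (r = 0.81, 0.81 and 0.77), and Cyp27b1 to Gm128, Gm43653 and Asl (r = 0.72, 0.67 and 0.64). Among those closest to Kl were Cpt1a and Uqcr11 (r = 0.84 and 0.78). Vdr was closest to Mfn1, Ndufb9 and Hspa9 (r = 0.86, 0.86 and 0.86), and Pth1r to Phyhipl, Slc25a30 and Tnfrsf21 (r = 0.80, 0.79 and 0.79). Slc20a1 was closest to Gm44785, Thpo and 1700016C15Rik (r = 0.76, 0.76 and 0.76), and Slc20a2 to Ercc6l2, Wdr11 and Ift81 (r = 0.75, 0.70 and 0.70). The points share libraries and the background of proximal tubule RNA, so the values describe likeness only.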

How the data were processed

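The authors deposited 1 matrix of raw UMI counts for 32285 genes and 10474594 barcodes. Per the labels' processing notes Cell Ranger 6.0 and the mouse build mm10 were used, and the merged matrix still held empty droplets. The study's methods count 15 matrices, where the barcodes show 5 libraries. Since no label ties a library to a sample, the libraries were handled as 1 pooled sample and not as replicates.

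Cells were called per library in 2 steps modelled on Cell Ranger (a UMI count of 10% or more of that reached by the deepest 1% among the top 3000 barcodes, then a test against the ambient profile with 10000 simulations at an adjusted p of 0.01). This gave 70158 cells, of which 510 had fewer than 200 genes and 12579 had over 25% mitochondrial counts, and 57528 were kept. The filters alone would have kept 79202 barcodes. Doublets were left in, and 5889 cells of highest Scrublet score were left out as an alternative. Library totals in kept cells ranged from 51027963 to 94740824 UMIs.

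Cells needed a UMI in at least 5 of 8 proximal tubule markers, or in at least 3 markers of another class. Segments were assigned by the highest mean marker score with a gap of at least 0.25. These limits were set after marker counts were seen, and the 9 genes entered none of them.

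Counts were summed by class and library. Intervals (95%) were exact Poisson for CPM, Clopper-Pearson for shares and Greenland-Robins for Mantel-Haenszel ratios. A floor of 3 counts was used for levels of 0. Shares were also computed after thinning each cell to 2000 UMIs, leaving out shallower cells. Motif matches were searched in 250 bases upstream. The scripts were tested on simulated data. No p-value was computed, since conditions have no identified sample. All 9 genes are named. The other axis genes were to be named where called in the Havcr1 comparison or highest in their role, and like genes by the 3 highest correlations among genes of at least 5 CPM in some class, the class markers and the 9 genes left out. Some of these like genes are not reported here. The genes and lists were chosen with earlier results of these data known. The 26 alternative settings listed beforehand and 6 added after the data were seen changed cell calling, filters, markers, averaging, depth, strata, scaling and libraries. Python 3.11.15, numpy 2.4.6, scipy 1.17.1, pandas 2.3.3, scanpy 1.11.5, numba 0.67.0 and matplotlib 3.10.9 were used.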

Additional observations from a re-analysis of the deposited data

Results flagged for a closer look

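Of 17 sets of 5 library values tested for a single value far from the rest, 4 held one. Chance gives about 1 in 20 such sets, and the 5 libraries are different samples and not replicates of a group. Cyp24a1 in proximal tubule cells stood at 196 CPM in library 3, with the nearest library at 44.9 CPM. Slc20a2 stood at 13.8 CPM in library 1, with the nearest at 17.5 CPM. The Slc34a1 log2 ratio of Havcr1-bearing to Havcr1-free cells was -1.71 in library 5, against -0.58 in the nearest library. The Kl log2 ratio in the same comparison was -1.21 in library 5, against -0.40 in the nearest. Both ratios of library 5 rest on 34 bearing cells, of which 85.3% scored S3.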

How the results depend on the processing

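With at most 10% mitochondrial counts, 5 genes were called between S1 and S3 in place of 3 (Cyp24a1 and Kl were added), and Slc20a1 was no longer highest in the proximal tubule (log2 ratio to the highest other class -0.052). With 1 more marker for each class the same ratio was -0.26 for Cyp27b1, and with each library left out it ranged from -0.67 (without library 3) to 0.45 for Cyp27b1. A span of at least 2-fold between libraries was found for 5 genes in S3-scored cells and for 5 per 1000 proximal tubule marker UMIs. Of the 5 in S3-scored cells, Slc34a3, Cyp24a1 and Cyp27b1 rest in some libraries on levels no higher than in leukocytes. They support no fold, and library 3 had no Cyp27b1 UMI in S3-scored cells. Leaving out each library gave 1 (without library 3) to 3 genes. Both scalings and the segment limits of this comparison were chosen after seeing the data. In the Havcr1 comparison Slc34a3 was called in every alternative run, with log2 ratios from -1.97 to -0.92, and Slc20a1 in all but the one without library 2, from 0.56 to 0.96. The size of these Slc34a3 ratios is not a ratio of expression, since in the main setting bearing levels in libraries 1, 3, 4 and 5 did not exceed leukocyte levels. Slc34a1 was also called with at least 2 Havcr1 UMIs (-0.75; library 5 not used) and with libraries pooled (-0.78), Kl with cells thinned to 2000 UMIs (library 5 again not used), and Cyp27b1 without library 2. The causes were not tested. No paired analysis was possible because the libraries are not tied to samples and carry no replicate numbers. Depth limits Cyp27b1 most, with 44 UMIs in Havcr1-bearing cells.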
